A study of Mus musculus with 12 samples.

Results

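The 10 genes described here encode the 5 subunits of the transcription factor NF-κB and 5 of its ankyrin-repeat inhibitors and cofactors. They were taken by symbol from count tables of 27179 Entrez gene IDs, and all 10 were found. The cells were NIH3T3, a mouse fibroblast line of embryonic origin that grows without limit, labelled RelA-/- Rela-DsRed: RelA, the p65 subunit, is deleted and a fusion of RelA with the red fluorescent protein DsRed is carried in its place. All groups share this genotype. By the labels, 3 samples each received IL-1b at 0.2 ng/mL, LPS at 100 ng/mL, PAM at 0.2 ng/mL or media alone, for 2 h inside microfluidic devices. Each of the 9 tables of samples without IL-1 was an exact copy of the table of IL-1 replicate 3, so only the 3 IL-1 libraries were used. No untreated sample could therefore be set beside them, and the values below are levels in IL-1-treated cells, not responses to IL-1.

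In resting cells, NF-κB dimers are held in the cytoplasm by IκB proteins. Signals such as IL-1 activate the IκB kinase, IκB is phosphorylated, ubiquitinated and degraded, and the freed dimers enter the nucleus, where they also switch on genes of the family itself. RelA, RelB and c-Rel carry transactivation domains. p50 and p52 lack one and are made from the precursors p105 (Nfkb1) and p100 (Nfkb2), whose ankyrin repeats let the uncleaved forms act as inhibitors too. IκBα, IκBβ and IκBε are the classical cytoplasmic inhibitors, while IκBζ (Nfkbiz) and Bcl3 act in the nucleus with p50 or p52.

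The 3 libraries held 17254518 to 18578859 counts. Levels are given as counts per 1000000 counts of the library (CPM) and, to compare genes, as CPM per kb of merged exon, since longer transcripts give more reads. Values after ± are SD over the 3 libraries (n = 3), which the labels do not say were separate cultures, so this spread may be technical. All 10 fibroblast markers checked, such as Vim and Col1a2, reached 1 CPM in every library. Of the other markers, 2 of 7 leukocyte, 0 of 5 epithelial and 0 of 4 endothelial ones did. The 2 leukocyte markers were Cd68, with 20, 55 and 36 counts, and Csf1r, with 32, 40 and 27 counts. The summed leukocyte level ranged from 3.65 to 5.25 CPM, and Ptprc, a general leukocyte gene, had 3, 0 and 6 counts. With 3 libraries of 1 group, an exact two-sided paired permutation test cannot go below p = 0.25, so no p-values are given. Differences between genes are judged instead by whether their ranges over the libraries overlap.

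Most of the family was transcribed, at widely different levels. Of the 10 genes, 9 reached 1 CPM in each library, against 41.3% of all 27179 gene IDs. The exception was Bcl3. Per kb, the inhibitor genes Nfkbia and Nfkbie stood first and second, the group of Nfkbib, Nfkb2 and Relb followed, and Rela, Nfkb1, Nfkbiz, Rel and Bcl3 came after them. The median was 16.6 CPM per kb over the 10 genes and 21.6 over the 9 detected ones, beside 6.75 for the 11041 detected genes of known length. Of the 9 neighbouring pairs in this order, 7 had ranges that did not overlap. The pairs that overlapped were Nfkbib with Nfkb2 and Nfkb2 with Relb.

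**Figure D1:**
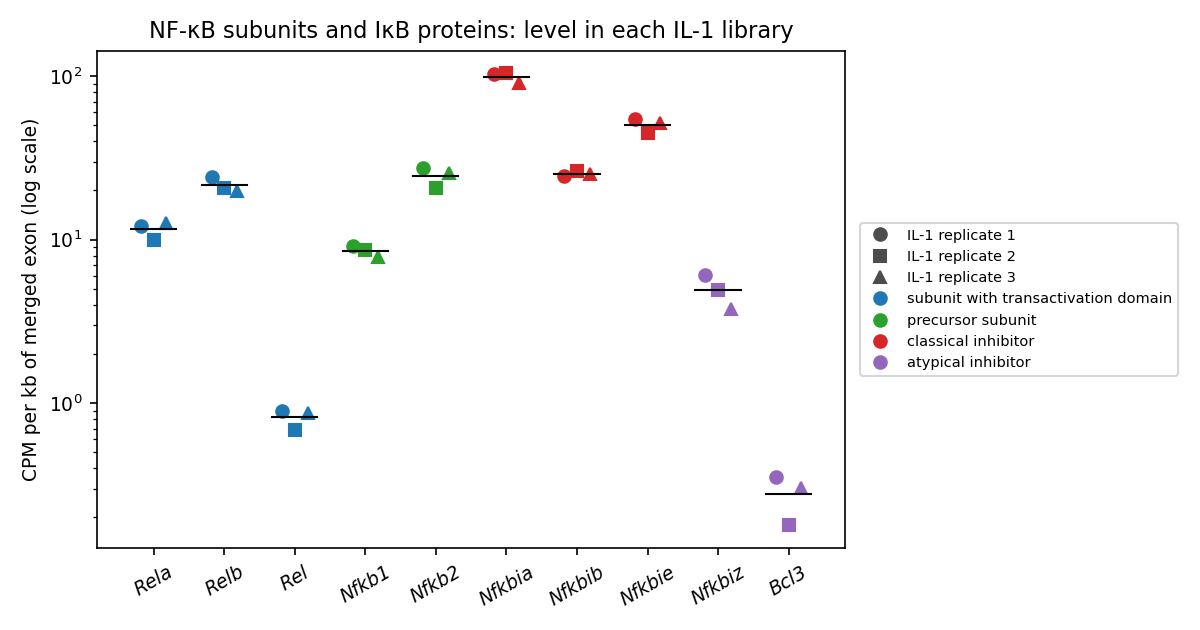
Level of each gene in CPM per kb of merged exon (log axis) in IL-1 replicates 1, 2 and 3 (circle, square and triangle); the bar is the mean of the 3 libraries and colour gives the role. Nfkbia is highest with a mean of 99.1 and Bcl3 lowest with 0.278.

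Several of these genes carry κB-type motifs at their starts, which is shown here because the family is known to regulate its own transcription. The motifs GGGNNTTTCC and GGGNNTTCCC were searched on both strands of RefSeq windows (GRCm38.p6) running from 250 bases before to 50 after an annotated start. At 1 position they exclude each other, but shifted by a base they can overlap. Windows were present for 7 of the 10 genes, all but Relb, Nfkb1 and Nfkbiz, and 4 of the 7 held a match: Nfkbia, Nfkb2, Rel and Bcl3. Over all 27025 genes with a window, 3.73% held either motif. The members were chosen as NF-κB genes, so this count is a description. The 30-base stretches below, from wholly before an annotated start and on the strand of the gene, have the match in capitals. The Nfkbia stretch is chr12:55492657-55492686 (minus strand), and its match lies 29 to 20 bases before the start. The Nfkb2 stretch is chr19:46304688-46304717 (plus strand), with a match on both strands 39 to 30 bases before the first of 3 starts with a window. All 3 starts, and this stretch, lie inside the annotated span of Nfkb2, which begins at 46300994. Nfkb2 held further matches. Overlapping ones lay 11 to 2 and 10 to 1 bases before the first of these starts. Another, after the second start, lay 225 to 216 bases before the third. The Rel stretch is chr11:23771042-23771071 (minus strand), with a match 92 to 83 bases before the start and a further one that overlaps it, shifted by 1 base.
Nfkbia: tgactggcttGGAAATTCCCcgcgcctgac
Nfkb2: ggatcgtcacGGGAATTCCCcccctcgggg
Rel: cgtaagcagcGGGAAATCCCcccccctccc
The match in Bcl3 lies after its start, within the transcribed part. These genes included the highest of the family per kb, Nfkbia, and both of the lowest, Rel and Bcl3. Nfkbie and Nfkbib, which followed Nfkbia per kb, had no match in their windows, nor did Rela. A match is a run of letters and does not show that NF-κB binds there.

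Among the subunits with a transactivation domain, Relb was the most abundant. Rela (Entrez 19697, chromosome 19, 5637442 to 5648134, plus strand, GRCm38), the deleted and reintroduced gene, had 641, 551 and 723 counts in replicates 1, 2 and 3, or 12.1, 9.91 and 12.7 CPM per kb. Replicate 2 was the low one. Its 95% counting interval of 28.0 to 33.1 CPM did not reach those of replicate 1 (34.3 to 40.1) or replicate 3 (36.1 to 41.9), and such intervals cover counting error only. Counts per gene do not separate the fusion from transcripts of the deleted allele, and the length used is that of the annotated gene, not of the construct.

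Relb (Entrez 19698, chromosome 7, 19606217 to 19629438, minus strand) encodes the usual partner of p52 in the non-canonical pathway. It had 1617, 1455 and 1443 counts, or 24.1, 20.7 and 20.0 CPM per kb. Every library was above every Rela library, and Relb was 1.89 ± 0.271 times Rela per kb. Rel (Entrez 19696, chromosome 11, 23736847 to 23770969, minus strand) encodes c-Rel, which is best known from lymphocytes. It had 116, 92 and 121 counts, or 0.900, 0.681 and 0.872 CPM per kb. Rela was 14.2 ± 0.640 times Rel per kb of merged exon. The Rel transcript is long (7466 bases, of which 1764 code for protein), and per kb of coding length the ratio was 6.24, still far above 1. Rel stood above only 9.27% of the detected genes per kb.

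Both precursor genes were well expressed, and their order with Rela depended on the length chosen. Nfkb1 (Entrez 18033, chromosome 3, 135584655 to 135691969, minus strand) encodes p105, the source of p50. It had 1893, 1878 and 1746 counts, or 110, 104 and 94.0 CPM. Per kb of merged exon this came to 9.10, 8.61 and 7.79, lowest in replicate 3. The merged exons of its 10 annotated transcripts cover 12061 bases, whereas its longest single transcript has 4149. Divided by the latter, Nfkb1 was at 24.7 instead of 8.50 CPM per kb, and at 1.92 instead of 0.745 times Rela. With merged exons Rela was above Nfkb1 in all 3 libraries, and under the 3 other measures of length Nfkb1 had the higher mean.

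Nfkb2 (Entrez 18034, chromosome 19, 46300994 to 46312400, plus strand) encodes p100, the source of p52. It had 2163, 1726 and 2166 counts, or 27.3, 20.8 and 25.4 CPM per kb, lowest in replicate 2. Relb and Nfkb2, whose products pair, were close to each other, with a Relb to Nfkb2 ratio of 0.882, 0.995 and 0.786 per kb. Their ranges overlapped, although Nfkb2 was the higher in each library. Per kb of mean coding transcript or of coding length Relb had the higher mean, with ratios of 1.49 and 1.21. Nfkb2 was 2.90 ± 0.434 times Nfkb1 per kb of merged exon and 1.19 times per kb of the longest transcript. Of the exon bases of Nfkb2, 18.1% are shared with genes on the opposite strand. The larger part, 11.6%, is shared with a long non-coding RNA gene, and 6.52% with Psd, which was at 11.7 ± 2.38 CPM. The strand setting of the counting is not given in the sources used here, so reads in the shared bases cannot be assigned with certainty.

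As shares of the 5 subunits per kb of merged exon, Nfkb2 made up 36.5% ± 1.99, Relb 32.3% ± 2.12, Rela 17.2% ± 1.497, Nfkb1 12.7% ± 1.29 and Rel 1.22% ± 0.0926. The precursor genes together gave 49.3% ± 0.703 of the subunit transcripts. That share varied little between libraries, from 48.5% to 49.8%, while Nfkb2 alone varied from 34.3% to 38.1%. With the longest transcript in place of merged exons the precursor share was 57.7% and the Rela share 13.99%.

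**Figure D2:**
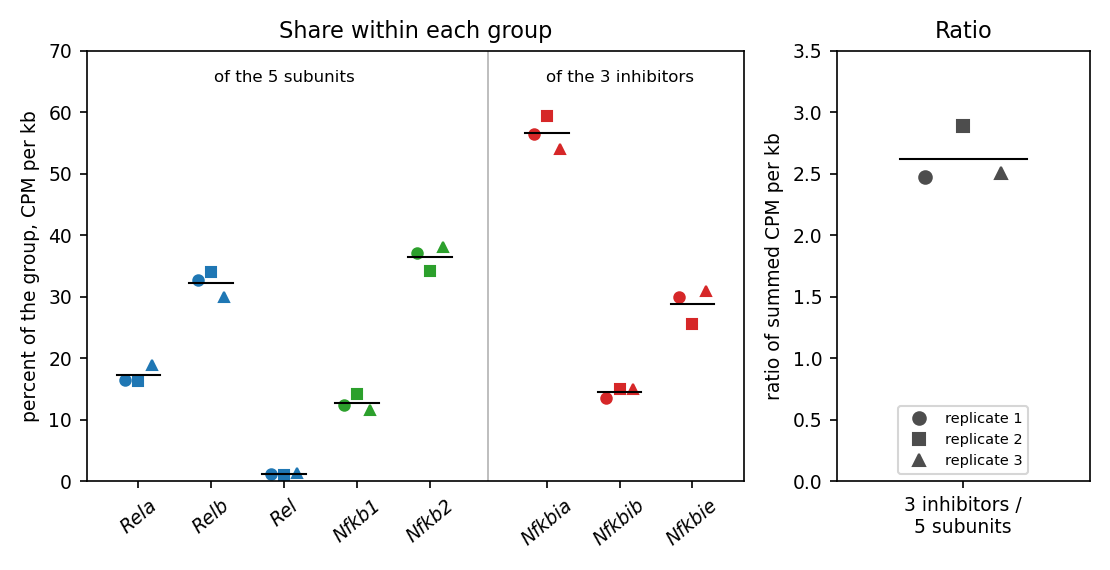
Left, share of each gene in the summed CPM per kb of the 5 subunits or of the 3 classical inhibitors, in percent; right, ratio of the summed inhibitors to the summed subunits. Symbols are IL-1 replicates 1, 2 and 3 and bars are means; Nfkb2 and Relb lead the subunits, Nfkbia leads the inhibitors, and the ratio is highest in replicate 2 at 2.89.

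Of the classical inhibitors, Nfkbia and Nfkbie were above every subunit per kb, while Nfkbib lay among the higher subunits. Nfkbia (Entrez 18035, chromosome 12, 55489409 to 55492647, minus strand) encodes IκBα, which is degraded and resynthesised within the NF-κB feedback loop. It had 2860, 3032 and 2703 counts, or 103, 104 and 90.4 CPM per kb, lowest in replicate 3. It stood above 94.8% of the detected genes per kb. Nfkbie (Entrez 18037, chromosome 17, 45555700 to 45563169, plus strand) encodes IκBε, which takes part in a slower feedback. It had 2862, 2470 and 2924 counts, or 54.5, 44.8 and 51.7 CPM per kb, lowest in replicate 2. Nfkbia was thus 1.89, 2.32 and 1.75 times Nfkbie per kb of merged exon, with ranges apart. The lead depended on the division by length: in CPM the genes overlapped, at 160 ± 12.3 and 153 ± 15.1, and Nfkbia was the higher in only 1 library. Per kb of coding length Nfkbia was 1.24 times Nfkbie, and again the ranges did not overlap.

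Nfkbib (Entrez 18036, chromosome 7, 28758251 to 28766644, minus strand) encodes IκBβ. It had 922, 1037 and 1013 counts, or 24.6, 26.4 and 25.1 CPM per kb. The libraries differed by only 1.07-fold, and its coefficient of variation of 3.64% was near the 3.18% that counting alone gives. It was the steadiest of the 10 genes. Nfkbia was 3.90 ± 0.294 times and Nfkbie 1.99 ± 0.264 times Nfkbib per kb. The 3 genes made up 56.7% ± 2.66 (Nfkbia), 28.8% ± 2.84 (Nfkbie) and 14.5% ± 0.878 (Nfkbib) of the classical inhibitor transcripts per kb. Of the Nfkbib exon bases, 16.4% are shared with genes on the opposite strand. The larger part, 14.5%, is shared with Ccer2, and 1.94% with Sirt2, which was at 43.2 ± 4.62 CPM. No level was obtained for Ccer2. As for Nfkb2, reads in the shared bases cannot be assigned with certainty.

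The atypical, nuclear members were among the lowest of the family. Nfkbiz (Entrez 80859, chromosome 16, 55811375 to 55838954, minus strand) encodes IκBζ, a cofactor for a subset of NF-κB target genes. It had 528, 449 and 350 counts, or 6.10, 4.95 and 3.75 CPM per kb. Replicate 1 was 1.62 times replicate 3, and the 95% counting intervals of the 3 libraries (28.0 to 33.3, 22.6 to 27.2 and 16.9 to 20.9 CPM) did not overlap. Nfkbiz was at 0.0494 ± 0.00900 of the Nfkbia level per kb. Among the detected genes, Nfkbiz stood above 42.4% per kb. Bcl3 (Entrez 12051, chromosome 7, 19808462 to 19822824, minus strand) encodes a partner of p50 and p52 homodimers. It had 15, 8 and 14 counts, or 0.869, 0.442 and 0.754 CPM. Its coefficient of variation of 32.1% was near the 28.5% expected from counting, so the libraries could not be told apart at this depth. Of its exon bases, 6.51% are shared with an antisense gene.

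Summed over genes, classical inhibitor transcripts exceeded subunit transcripts in every library. The inhibitors added up to 182, 175 and 167 CPM per kb and the subunits to 73.6, 60.7 and 66.8. The ratio was 2.48, 2.89 and 2.50, with a mean of 2.62 ± 0.231. Replicate 2 had the highest ratio and the lowest sum of subunits. Gene by gene, 14 of the 15 pairs of inhibitor and subunit had the inhibitor higher with ranges apart, and Nfkbib with Nfkb2 overlapped. That count was 12 with the longest transcript, where the other 3 pairs overlapped, and 14 with coding length. It was also 14 with the mean coding transcript, where Relb was above Nfkbib with ranges apart. In CPM it was 12, with Relb, Nfkb1 and Nfkb2 above Nfkbib. Without division by length the ratio of the sums was 1.08. Merged exons ran from 1610 (Nfkbia) to 3045 bases (Nfkbie) for the inhibitors and from 3072 (Rela) to 12061 (Nfkb1) for the subunits. The ratio was 1.92 with the longest transcript, 1.47 with the mean coding transcript and 2.36 with coding length. With Nfkb1 and Nfkb2 counted as inhibitors, as their uncleaved products can be, it was 6.14. These are ratios of transcripts and say nothing of the proteins.

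**Figure D3:**
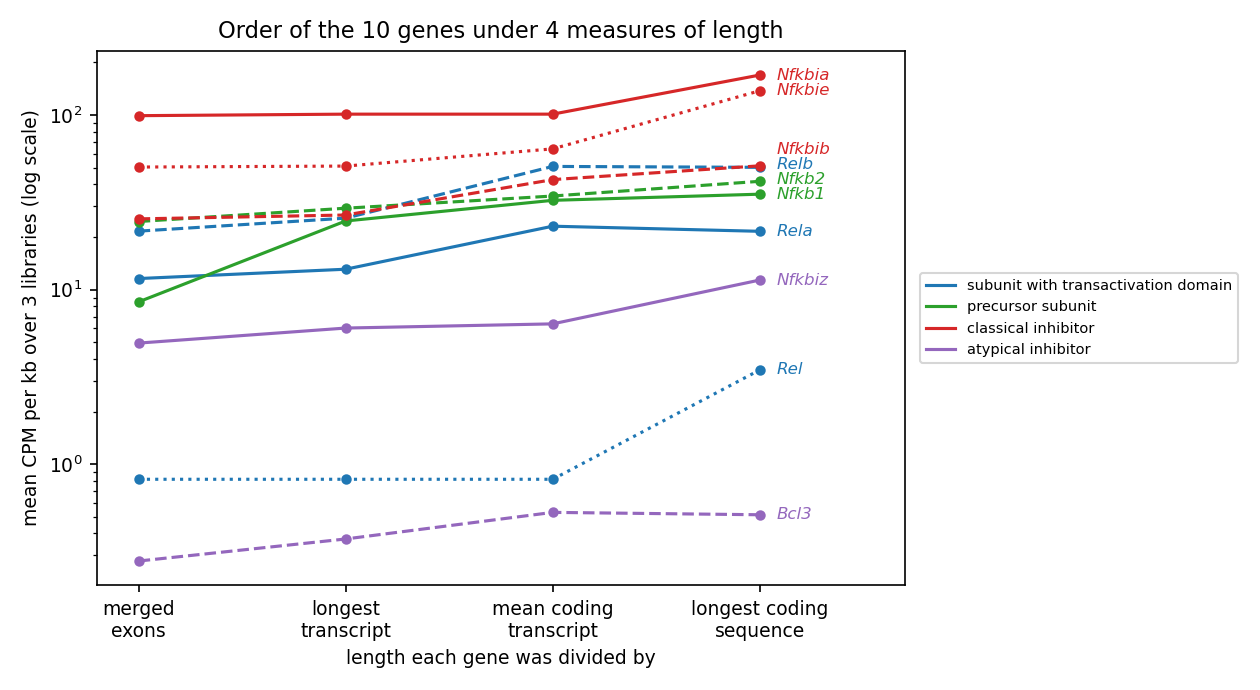
Mean CPM per kb over the 3 libraries (log axis) with each gene divided by its merged exons, longest transcript, mean coding transcript or longest coding sequence. Nfkbia and Nfkbie stay first and second, Nfkbiz, Rel and Bcl3 stay last in that order, and Nfkb1 goes from 8.50 to 24.7 between the first and the second measure.

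Of the 45 pairs among the 10 genes, 41 had the same order of means under all 4 measures of length. The 4 that changed were Rela with Nfkb1, Relb with Nfkb2, Relb with Nfkbib and Nfkb2 with Nfkbib. Under all of them Nfkbia and Nfkbie led, and Nfkbiz, Rel and Bcl3 came last, each in that order. With no division by length at all, Nfkb2 and Nfkb1 (112 ± 15.4 and 102 ± 7.95 CPM) and Relb (83.9 ± 8.58 CPM) came before Nfkbib (55.1 ± 2.00 CPM).

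Members were not all low in the same library, and neither are genes at large. Rela, Rel, Nfkb2 and Nfkbie were lowest in replicate 2, which was the lowest library for 41.9% of the 11224 detected genes. Relb, Nfkb1, Nfkbia and Nfkbiz were lowest in replicate 3, the lowest for 27.9% of them. Nfkbib alone was lowest in replicate 1, as were 30.2% of them. The 95% counting intervals of the lowest and the next library overlapped for Relb, Rel and Nfkbib, so their lowest library is not settled at this depth. Among the 9 detected members, replicate 1 was the highest library for 6, replicate 2 for 2 (Nfkbia and Nfkbib) and replicate 3 for 1 (Rela), against 45.7%, 27.1% and 27.3% of all detected genes. The counting intervals of the highest and the next library were apart only for Relb and Nfkbiz. For the other detected members the highest library is therefore not settled. The median member was 1.13 times the mean of the other libraries in replicate 1, beside 1.03 times for all detected genes, and members ran from 0.956 times (Nfkbib) to 1.39 times (Nfkbiz). The log2 ratio of the highest to the lowest library had a median of 0.28 over these 9 genes and of 0.21 over the 9719 genes at 5 CPM or more. It was 0.70 for Nfkbiz, larger than in 98.0% of those genes, and 0.10 for Nfkbib, larger than in 17.1%. Whether these differences come from the cells or from the libraries was not tested.

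**Figure D4:**
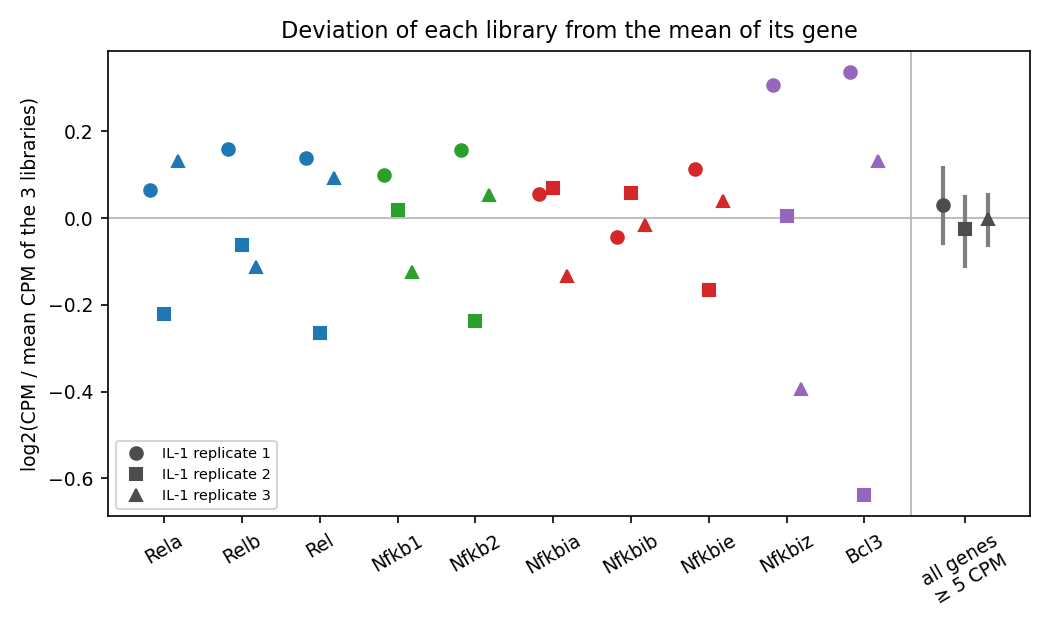
Deviation of each IL-1 library (circle, square and triangle for replicates 1, 2 and 3) from the mean of its gene, as log2(CPM / mean CPM); at the right, median and quartiles over all genes at 5 CPM or more. Nfkbib is the tightest gene, and Bcl3, with 37 counts in all, spreads most.

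The genes that act on this family were also largely transcribed. There were 57 entries in 7 lists, with Birc3 in both the NIK turnover and the textbook target lists. Merged exons were the only measure of length used for them. Of the 57 entries, 54 reached 1 CPM in every library, against 41.3% of all 27179 gene IDs. All 6 genes of the IκB kinase complex and its related kinases did, with a median of 4.90 CPM per kb. Among them were Tbk1 at 37.7 ± 2.72, Chuk (IKKα) at 16.7 ± 0.532 and Ikbkg (NEMO, the scaffold of the IκB kinase) at 7.30 ± 0.580 CPM per kb. Ikbkb (IKKβ) was at 2.49 ± 0.420 CPM per kb. Without division by length it was nearer to Ikbkg, at 47.5 ± 8.01 beside 59.2 ± 4.70 CPM. Map3k14, which encodes the kinase NIK that starts p100 processing, was lowest of the list at a mean of 1.22 CPM per kb, with 192, 83 and 152 counts. All 4 genes of NIK turnover were detected (median 6.26), led by Traf2 at 11.1 ± 1.32, Birc2 at 9.94 ± 0.4997 and Birc3 at 2.58 ± 0.572 CPM per kb.

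The ubiquitin ligase that marks phosphorylated IκB for the proteasome, listed with its conjugating enzymes, had the highest median of the lists, 37.98 CPM per kb, with 7 of 7 genes detected. Its general subunits Skp1 (223 ± 6.47) and Cul1 (73.3 ± 3.91) and the ubiquitin-conjugating enzyme gene Cdc34 (62.4 ± 1.94) led. Of its substrate receptors, Fbxw11 was at 31.5 ± 4.16 and Btrc at 2.15 ± 0.131 CPM per kb. The ratio between them was smaller in CPM, where their ranges were 115 to 147 and 33.9 to 38.2 and did not overlap. Fbxw11 was thus the higher with or without division by length, but the size of its lead depended on the merged exons. Other measures of length were not tried for this pair. Among other inhibitors of the pathway, 6 of 7 were detected, led by Commd1 (26.1 ± 2.25), Pdlim2 (23.9 ± 0.658) and Nfkbil1 (5.63 ± 1.22 CPM per kb). Nfkbid, the gene of the further nuclear inhibitor IκBNS, was not counted once. A total of 0 over the 3 libraries was taken to allow up to 3 counts, or 0.0556 CPM, a bound for counting error only. All 7 genes of nuclear transport were detected (median 16.8), led by the importin gene Kpna3 at 54.9 ± 3.24, the exportin gene Xpo1 at 33.7 ± 4.39 and the importin β gene Kpnb1 at 28.0 ± 3.00 CPM per kb.

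Coactivators and corepressors were all detected, 12 of 12, with a median of 3.68 CPM per kb. Hdac3 (49.1 ± 1.17) and Hdac2 (46.7 ± 0.0720), which encode histone deacetylases, and the acetyltransferase gene Kat5 (13.9 ± 0.546) led. Of 14 textbook targets of NF-κB, 12 were detected. The median of all 14, with the undetected Csf2 and Tnf included, was 5.52 CPM per kb. Per kb, the chemokine gene Ccl2 (439 ± 32.2), the adhesion molecule gene Vcam1 (219 ± 11.5) and the chemokine gene Cxcl1 (90.5 ± 4.46) led. Without division by length Vcam1 was above Ccl2, at 1939 ± 102 beside 500 ± 36.6 CPM. Nfkbia itself stood at 99.1 ± 7.62 CPM per kb, close to Cxcl1. Tnf had no count.

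**Figure D5:**
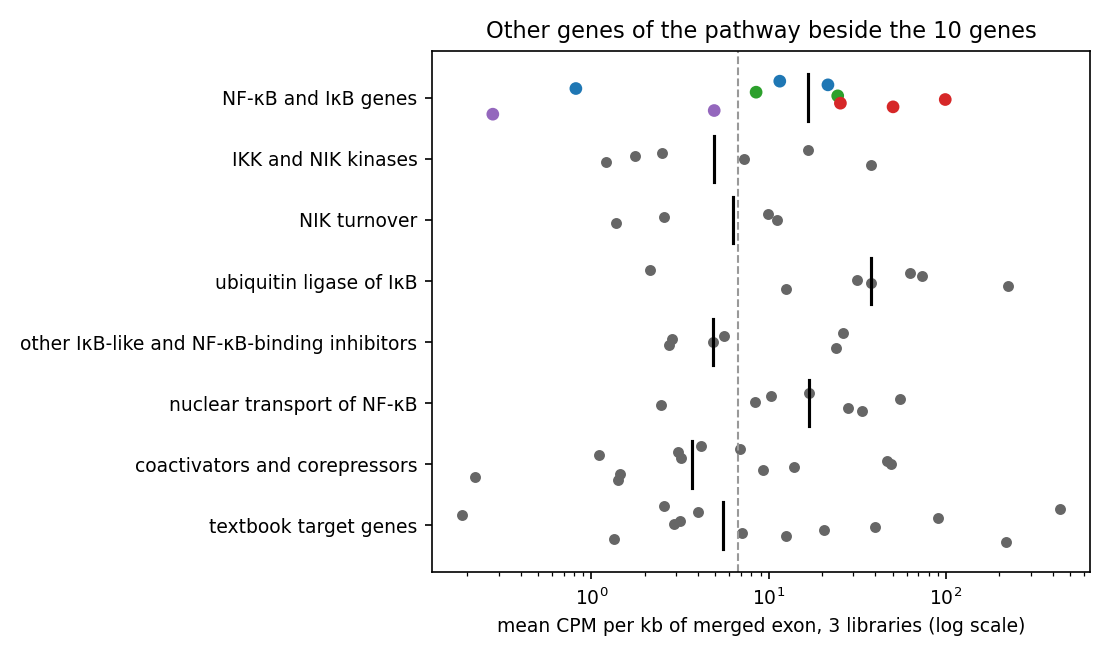
Mean CPM per kb of merged exon (log axis) of the 10 genes, coloured by role as in the other plots, and of the other pathway genes in grey. Short bars are list medians, undetected genes included, and the dashed line is the median of all detected genes, 6.75. Nfkbid and Tnf, with no count, are not drawn; the ubiquitin ligase list has the highest median, 37.98.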

How the data were processed

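PolyA RNA was measured in 12 samples. Per the labels' protocols, cells of at most 20 passages were lysed in 0.1% detergent, reverse transcribed without RNA extraction and pre-amplified for 10 cycles, and libraries were made with a tagmentation kit. The deposited tables hold raw counts per Entrez gene ID, per the file headers 1 alignment each. The submitters' processing notes name CASAVA, STAR, featureCounts and the build mm10. For versions, annotation, strand and reads that map to several places, settings were not given in the sources used here. No molecular identifiers are mentioned, so counts are reads. Between the LPS, PAM and media samples, 9 tables were copies of IL-1 replicate 3 and were left out. Counts were divided by library totals (CPM), then by exon length from GENCODE M21 (GRCm38, the build of mm10). Such a length was known for 98.4% of the detected genes. Merged exons of all transcripts were the main measure; the longest transcript, the mean coding transcript and the longest coding sequence were alternatives. Coding length was measured on annotated coding sequence. Detection meant 1 CPM or more in each library. Ratios to other libraries used CPM + 0.5. Poisson intervals are exact. TMM and relative log expression factors came from edgeR 4.0.16. Positions and promoter windows are from RefSeq GRCm38.p6. No model was fitted, since 1 group allows no contrast. All 10 members were named. Of each pathway list, the 3 genes highest per kb and every gene without a count were named. Ikbkb, Map3k14, Fbxw11 and Btrc were added after their values were seen. The members and lists were chosen with earlier results of these data known. Python 3.11.15, numpy 2.4.6, pandas 2.3.3 and R 4.3.3 were used.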

Additional observations from a re-analysis of the deposited data

How the results depend on the processing

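No paired analysis was possible because no second group remained to pair the IL-1 libraries with. TMM and relative log expression factors changed none of the counts they were applied to: 9 members detected, 6 highest in replicate 1 and 7 neighbouring pairs apart. Detection levels of 0.5 and 2 CPM also gave 9. Apart pairs numbered 6 to 8 under other lengths and 7 to 9 with a library left out, where fewer libraries give narrower ranges. Length mattered more than libraries. With the longest transcript, the mean coding transcript, coding length and no length, the inhibitor to subunit ratio (2.62) was 1.92, 1.47, 2.36 and 1.08, and the precursor share (49.3%) was 57.7%, 47.2%, 50.6% and 63.1%. The Rela share (17.2%) was 13.99%, 16.3%, 14.2% and 10.4% with the longest transcript, the mean coding transcript, coding length and no length. The Nfkbia share of the inhibitors (56.7%) was 56.5% with the longest transcript, and 48.7%, 47.3% and 43.4% with the mean coding transcript, coding length and no length. Counting Nfkb1 and Nfkb2 as inhibitors gave a ratio of 6.14, and adding the atypical inhibitors gave 2.70. With Nfkb1 alone divided by its longest transcript, an alternative chosen after the data were seen, the ratio was 2.11, the precursor share 59.2% and the Rela share 13.9%. Leaving out a library gave ratios of 2.49 to 2.70, precursor shares of 49.0% to 49.7%, Rela shares of 16.4% to 17.7% and Nfkbia shares of 55.3% to 58.0%, a range that 3 libraries bound by construction. Depth limits Bcl3 (37 counts in all) and, less so, Rel (329).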

Other observations

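Relb and Bcl3 lie on the same strand of chromosome 7, with 179 kb between them, and stood at 83.9 ± 8.58 and 0.688 ± 0.221 CPM (SD, n = 3), in the middle and at the low end of the family. The 9 protein-coding genes counted between them were mixed as well. Clptm1, the neighbour of Relb, was at 84.1 ± 8.24 CPM, the mitochondrial import gene Tomm40 at 106 ± 9.83 CPM and the adhesion gene Nectin2 at 24.8 ± 6.56 CPM, and these 3 reached 1 CPM in every library. Apoe, which encodes a lipid carrier, had 14, 22 and 36 counts. The apolipoprotein genes Apoc1, Apoc2 and Apoc4 and the adhesion gene Bcam had no count, and Cblc, next to Bcl3, had 2 counts in replicate 1 and none in the others. The genes of this interval were looked at after the values of Relb and Bcl3 were known.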
